A study of Mus musculus with 2 samples.

Results

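The imprinted H19, Igf2 and Cdkn1c region of distal mouse chromosome 7 is described here through 8 genes, namely H19, Igf2, Cdkn1c, Phlda2, Kcnq1ot1, Slc22a18, Nap1l4 and Cd81. They were taken by name from the 18111 annotated genes with at least 1 read in either library, with earlier results of these data known, and all 8 had a read. Total RNA of adrenal gland tissue was sequenced with long reads in 2 libraries, labelled biological replicates 2 and 1, and the design holds no other group. The mice were females of the B6CASTF1/J cross at 14 days of age, with no treatment, mutation or second group. The tissue record of replicate 2 names a Female 04 and that of replicate 1 names 3x Females, while both library descriptions name 3 females, and the number of animals behind each library is not settled by the labels. The reads are not divided by parental allele in the files, so levels are summed over both parental copies.

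In an imprinted region one parental copy of a gene is silenced by marks set in the germ line. At the H19 end, a control element between the genes allows H19 RNA from the maternal copy and Igf2 from the paternal copy. At the Cdkn1c end, the paternal copy makes the long antisense RNA Kcnq1ot1, which silences neighbouring genes in cis, and Cdkn1c, Phlda2 and Slc22a18 are made from the maternal copy. Nap1l4 and Cd81 lie at the edges of that domain and are known for imprinting mainly in the placenta. Igf2, H19 and Cdkn1c are abundant in fetal growth and decline after birth in most tissues, and CDKN1C is known in humans for growth disorders that involve the adrenal gland.

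Replicate 2 held 991731 reads and replicate 1 held 1143111, of which 946553 and 1065570 fell in annotated genes. Values are levels in CPM of these gene reads, not scaled by transcript length, and every read of a gene counts once. A count of 0 allows up to 3 reads, or 3.17 CPM in replicate 2 and 2.82 CPM in replicate 1. Unless Fisher's or edgeR's exact test is named, p-values are from an exact conditional binomial test, two-sided, with Benjamini-Hochberg adjustment over 9211 genes with at least 20 summed reads. These tests compare 2 libraries by counting error only, and the spread between them may be technical or that of the animals. Of the 9211 genes, 2436 passed the test in either direction (26.4%), 790 of them higher (8.58%) and 1646 lower (17.9%) in replicate 2, with a median log2 ratio of -0.28. The share of calls that were higher was 32.4%, against 67.6% with TMM scaling, 69.0% with DESeq2 size factors, 92.4% with spike-in totals and 51.5% with hepatocyte and skeletal muscle markers left out of the totals. These scalings moved the median of all genes up by 0.28, 0.29, 0.59 and 0.16. TMM called 1151 of the 9211 genes higher and 552 lower, and spike-in totals called 2071 higher and 170 lower. An edgeR exact test with an assumed coefficient of variation of 0.2 called 446 genes higher and 67 lower. The libraries also stood apart in cell type markers. The 28 hepatocyte markers summed to 101912 CPM in replicate 2 and 1030 CPM in replicate 1, and the 19 skeletal muscle markers to 3094 and 162 CPM. The markers of adrenal cortex were present in both libraries, at 26310 CPM in replicate 2 and 60563 CPM in replicate 1 for 14 genes, as were those of chromaffin cells, at 5486 and 14067 CPM for 12 genes.

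The region split into genes that were far higher in replicate 2 and genes that differed little. H19, Igf2 and Slc22a18 were higher in replicate 2, Cdkn1c and Cd81 were modestly lower under scaling by gene reads, Nap1l4 did not pass, and Phlda2 and Kcnq1ot1 were at or under the limit that a count of 0 allows. Of the 8 genes, 6 reached 20 summed reads, and of these 3 were called higher, against 8.58% of all genes tested, and 2 lower, against 17.9%. Both lower calls were lost under spike-in scaling, where Cdkn1c was at 0.069 and Cd81 at 0.25. The 8 genes together held 2829 reads in replicate 2 and 3203 in replicate 1, which is 0.299% and 0.301% of gene reads. By rank of CPM in a library, with no scaling for length, Cd81 was at 68 in replicate 2 and 38 in replicate 1, Cdkn1c at 140 and 75, and Nap1l4 at 2108 and 2249. H19 stood at rank 194 in replicate 2 and 6657 in replicate 1.

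**Figure D1:**
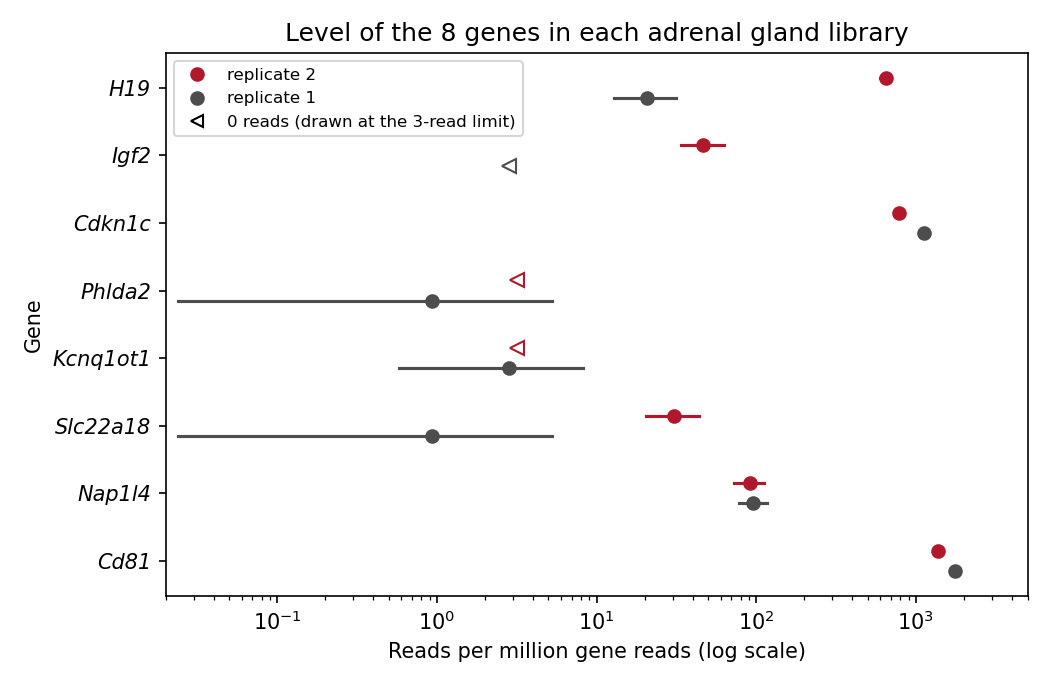
Level of each gene in CPM (log axis) in replicate 2 (red, upper point) and replicate 1 (grey, lower point), with exact Poisson 95% counting intervals. Open triangles mark 0 reads and stand at the limit of 3 reads. H19, Igf2 and Slc22a18 lie far apart between the libraries, while Cdkn1c, Nap1l4 and Cd81 lie close together, with Cdkn1c and Cd81 lower except under spike-in scaling, where both were positive.

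H19 encodes a long noncoding RNA whose first exon also holds the hairpin of the microRNA miR-675 (mm10 chromosome 7, 142575529 to 142578143, minus strand). It had 613 reads in replicate 2 and 22 in replicate 1, or 648 and 20.6 CPM (334 ± 443 CPM, SD, n = 2). The libraries did not overlap in their counting intervals, and replicate 2 was the high one. The ratio was 31.4 (exact counting 95% interval 20.5 to 50.4) and the log2 ratio 4.94 (SE 0.310, adjusted p = 7.35e-165, exact conditional binomial test). Without the hepatocyte and skeletal muscle markers in the totals the log2 ratio was 5.10, and over 12 alternatives it ran between 4.91 and 5.53, always past the test. In bulk tissue, fewer cells of a type and less RNA per cell cannot be told apart.

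Markers of other cell types moved with H19. Of 27 hepatocyte markers tested, 27 were higher in replicate 2. Apob, Cyp2c29, Hao1 and Tat had 0 reads in replicate 1, against 5, 60, 140 and 129 in replicate 2. Of 13 skeletal muscle markers tested, 12 were higher. Myh1, Myh2, Tnnt3 and Ttn had 0 reads in replicate 1, against 163, 20, 19 and 1 in replicate 2, and Myh8 had 0 in both libraries. Apob, Tnnt3 and Ttn were under the minimum and not tested, and Ttn did not exceed the limit of 3 reads. Of 12 fibroblast and capsule markers 5 were higher, of 9 adipocyte markers 4, and of 6 leukocyte markers 3. Lower were 13 of 14 adrenal cortex, 11 of 12 chromaffin, 5 of 5 erythroid and 1 of 9 endothelial markers. Over all genes tested 8.58% were higher and 17.9% lower. Spike-in scaling called 2071 of all 9211 genes tested higher and 170 lower. With it 11 adrenal cortex, 8 chromaffin and 5 erythroid markers were lower, and 4 endothelial markers were higher. Their part in the result was not tested. Among 2069 other genes with at least 200 summed reads, the 5 nearest to H19 by distance in log2 CPM over the 2 libraries were Ckm, Ass1, Cyp2e1, Acta1 and C3. Ckm and Acta1 encode creatine kinase and actin of skeletal muscle. Ckm had 477 reads in replicate 2 and 25 in replicate 1, and Acta1 had 758 and 30. Ass1 and Cyp2e1, a urea cycle enzyme and a cytochrome P450 abundant in liver, had 671 and 16 reads and 609 and 32 reads.

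**Figure D2:**
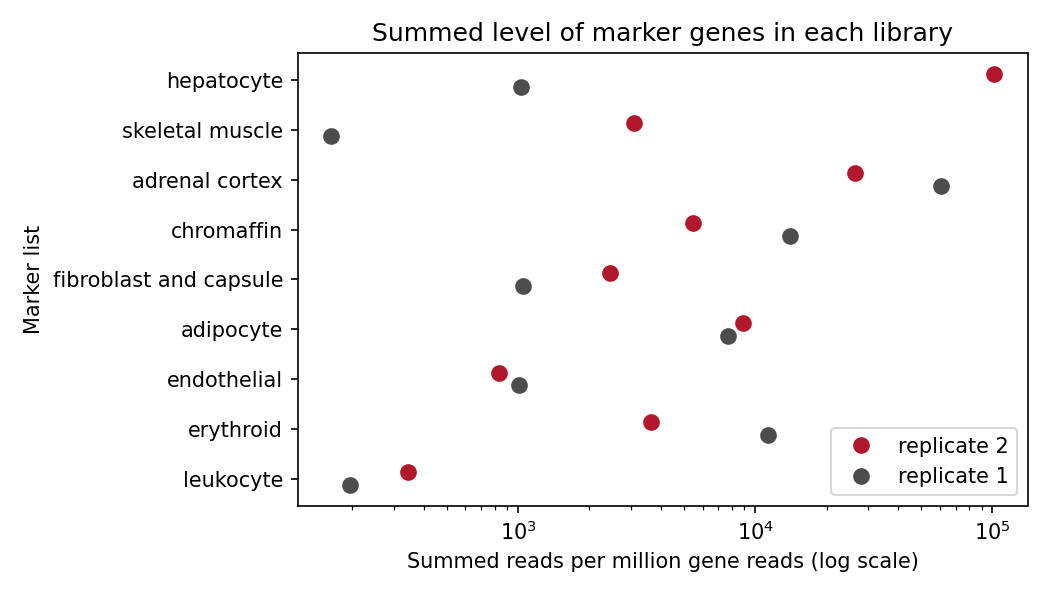
Summed CPM (log axis) of 9 marker lists in replicate 2 (red, upper point) and replicate 1 (grey, lower point). The hepatocyte sum is 101912 in replicate 2 and 1030 in replicate 1, while the adrenal cortex sum is 26310 and 60563.

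Most H19 reads followed annotated splicing in both libraries. The leading chain of introns, that of an annotated form with 5 exons, took 547 of 594 multi-exon reads in replicate 2 (92.1%, exact 95% interval 89.6 to 94.1) and 15 of 19 in replicate 1 (78.9%, 54.4 to 93.9). A chain that lacks the first intron, classed as an incomplete splice match (ISM), had 21 reads in replicate 2 and 4 in replicate 1. Unspliced reads in the last exon numbered 19 and 3. Another annotated form, whose exon 2 starts 4 bases further in at an alternative acceptor (142576743 in place of 142576747), took 14 reads in replicate 2, against 0 in replicate 1. The next sequence shows the start of exon 2, with the 4 bases that this form leaves out in capitals. They end in AG, the letters that close most introns.
H19 exon 2 (mm10, chr7:142576718-142576747, minus strand): CCAGgtctccagcagaggtggatgtgcctg
With replicate 1 at 15 reads on this junction, a share of this form as in replicate 2 (2.48%) was not detectable.

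Most H19 reads were assigned to models that hold the whole miR-675 hairpin (142577064 to 142577147, minus strand). These were 563 of 613 reads in replicate 2 (91.8%, 89.4 to 93.9) and 15 of 22 in replicate 1 (68.2%, 45.1 to 86.1). Known models carry annotated ends, so a read assigned to one need not reach the hairpin itself. The mature forms, from RefSeq on GRCm38.p6, are shown because they are the products that this exon can yield, with the seed (bases 2 to 8) in capitals.
mmu-miR-675-5p: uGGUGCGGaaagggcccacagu
mmu-miR-675-3p: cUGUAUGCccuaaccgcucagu
Mature microRNAs were not measured here.

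Igf2 encodes insulin-like growth factor 2, a fetal growth factor (142650766 to 142666816, minus strand). It had 44 reads in replicate 2 and 0 in replicate 1, or 46.5 CPM against the limit of 2.82 CPM. Against that limit it was 16.5-fold higher in replicate 2, and the exact counting interval of the ratio starts lower, at 12.9 (adjusted p = 9.04e-14, exact conditional binomial test). The reads came almost wholly from outside its coding part. Of the 44 reads, 43 belonged to 1 unspliced model of 859 nt (142650766 to 142651624), classed as Genomic, in the 3′ part of the gene. The remaining read held an unannotated intron of 325 nt (142651625 to 142651949) that begins with GT and ends with AG. The coding bases of most annotated Igf2 transcripts lie between 142653819 and 142655810, beyond the unspliced model. An unspliced read holds no splice site to fix its strand, and model ends need not be the ends of each read.

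The last exon of Igf2 is also annotated as an exon of another gene, Gm49394, which had 0 reads in replicate 2 and 3 reads in replicate 1. Counted together, in an alternative chosen after the data were seen, Igf2 and Gm49394 had 44 and 3 reads, a ratio of 16.5 (exact counting interval 5.29 to 83.1, adjusted p = 2.61e-10 in the exact conditional binomial test). The assignment of reads between the 2 genes is therefore uncertain, while the difference between the libraries is past the test either way. With Genomic models left out, Igf2 kept 1 read and could not be tested. The same hepatocyte and skeletal muscle markers as for H19 moved with Igf2, and their part in the result was not tested.

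Partners of Igf2 in IGF signalling were split. Of 19 listed genes 11 reached 20 summed reads, of which 5 were higher, 1 was lower and 5 did not pass. Over all genes tested 8.58% were higher and 17.9% lower. The median log2 ratio of the list was 0.99, beside -0.28 over all genes tested. Igf1, the postnatal growth factor made mainly by liver, had 156 reads in replicate 2, against 5 in replicate 1 (ratio 35.1, exact counting interval 14.7 to 110). Igfbp2, an IGF binding protein, had 353 and 4 reads (ratio 99.3, interval 38.5 to 367), and Igfals, the acid-labile subunit of the circulating IGF complex, had 90 and 1 (ratio 101, interval 17.7 to 4046). Igfbp4, another binding protein, had 513 and 106 reads (log2 ratio 2.44, SE 0.154), and Igfbp1, a binding protein made in liver, had 29 and 2 (ratio 16.3, interval 4.13 to 141). Igfbp7 was lower, with 732 and 1232 reads (log2 ratio -0.58, SE 0.067), though not under spike-in scaling (0.0073). Igfbp3 had 111 and 98 reads and did not pass, but was higher under TMM (0.63). Under spike-in scaling 8 of the 11 were higher, against 2071 of all 9211 genes tested. The receptors were sparse. Igf2r, which clears Igf2 from the cell surface, had 18 reads in replicate 2 and 10 in replicate 1 and did not pass (adjusted p = 0.207, exact conditional binomial test), and Igf1r, the signalling receptor, had 7 and 8.

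Cdkn1c encodes p57Kip2, an inhibitor of cyclin-dependent kinases that holds cells out of the cell cycle (143458339 to 143461050, minus strand). It was well covered in both libraries, with 746 reads in replicate 2 and 1203 in replicate 1, or 788 and 1129 CPM (959 ± 241 CPM, SD, n = 2). The log2 ratio was -0.52 (SE 0.067, adjusted p = 1.65e-13, exact conditional binomial test), which is 0.698-fold with an exact counting interval of 0.636 to 0.765. The call was lost when libraries were assumed to vary by a coefficient of 0.2 or 0.4 (edgeR exact test, adjusted p = 0.734 and 1.00), and the log2 ratio turned to 0.069 under spike-in scaling. The 5 other genes nearest to it in level over both libraries were Rplp0, Rpl5, Hnrnpa2b1, Igfbp7 and Tuba1b. Rplp0, a ribosomal protein gene, had 741 and 1212 reads, and Rpl5, another, had 736 and 1193.

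Most Cdkn1c reads did not follow an annotated form. The files sort models into TALON classes: by definition NIC models combine known splice sites in a way not annotated, and NNC models have a site that is not annotated. NIC reads made up 46.2% of Cdkn1c reads in replicate 2 (exact 95% interval 42.6 to 49.9) and 50.4% in replicate 1 (47.5 to 53.2), against 3.97% and 4.54% over all annotated genes. NNC reads made up 13.7% and 11.6%, against 3.10% and 3.30% over all genes. Known models held 37.8% in replicate 2 and 33.3% in replicate 1. By the summed share of NIC and NNC reads, 61.2%, Cdkn1c ranked 35 of 2072 genes with at least 200 summed reads, whose median was 3.32%. Among the same genes Cd81, at 2.55%, ranked 1194 and H19, at 0.630%, ranked 1803.

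**Figure D3:**
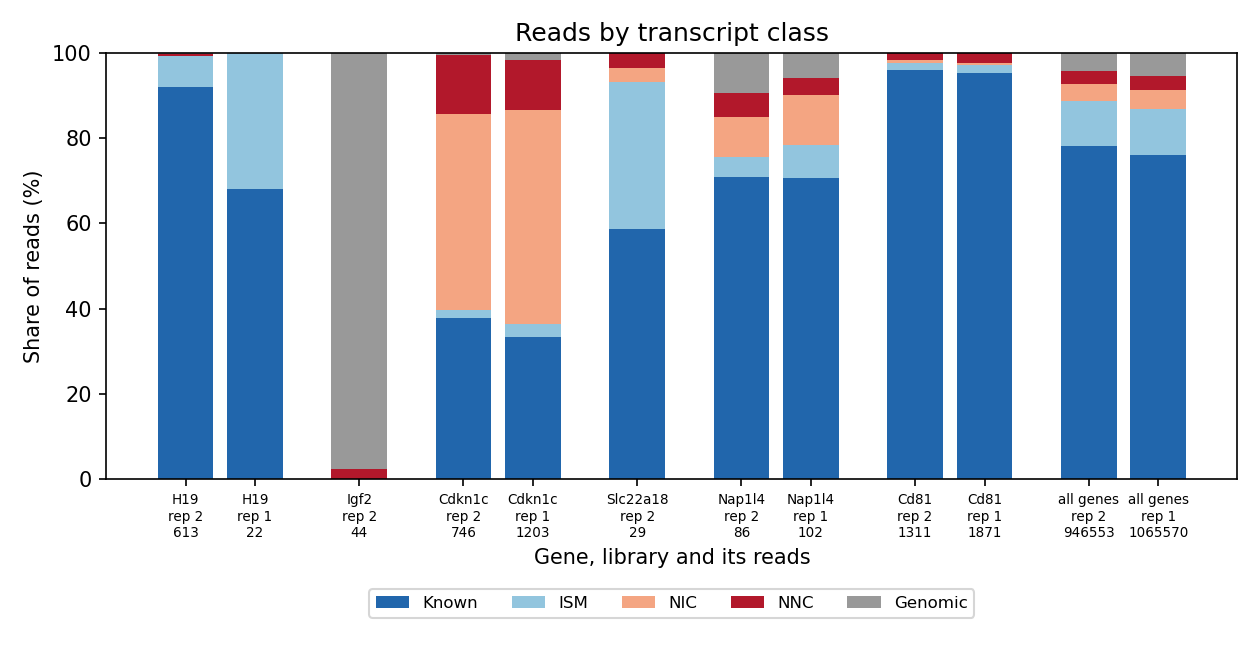
Share of reads (%) by transcript class for each gene with more than 3 reads in a library and for all annotated genes, replicate 2 left of replicate 1, with the number of reads under each bar. Cdkn1c is mostly NIC and NNC (61.2% over both libraries), Igf2 in replicate 2 is almost wholly Genomic, and Cd81 and H19 in replicate 2 are mostly Known.

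Most unannotated reads differed at the ends of exon 2, the exon that holds most of the coding sequence. Its start, on the minus strand, was at 1 of 3 acceptors and its end at 1 of 2 donors, and the 6 combinations of them held 697 of 742 multi-exon reads in replicate 2 (93.9%) and 1128 of 1183 in replicate 1 (95.4%). The outer acceptor (first exon base 143460716, annotated) took 9.90% of these reads in replicate 2 (7.78 to 12.4) and 9.84% in replicate 1 (8.16 to 11.7). The inner acceptor (143460678, annotated) took 63.0% (59.3 to 66.6) and 63.7% (60.9 to 66.6). An unannotated acceptor 3 bases further in, at 143460675, took 27.1% (23.8 to 30.6) and 26.4% (23.9 to 29.1). The shares of each acceptor lay within the counting intervals of the other library.

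The next sequence shows the inner pair, with the 3 bases between its acceptors in capitals. Both the bases before the capitals and the capitals themselves read CAG, so either position ends an intron in AG. The start codon annotated for the inner acceptor is the atg 7 bases after the capitals, so both forms keep the same coding sequence and differ by 3 bases of untranslated leader.
Cdkn1c exon 2, acceptors (mm10, chr7:143460661-143460688, minus strand): acctccgcagCAGaacagcgatggaacg
Reads from the outer acceptor hold another 38 bases, in which a longer annotated coding sequence begins at 143460707, 13 codons before the other start.

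Both donors of exon 2 were in common use. The nearer donor (last exon base 143459795) took 53.1% of the 6-form reads in replicate 2 (49.3 to 56.8) and 52.0% in replicate 1 (49.1 to 55.0). The donor 36 bases further on (143459759) took 46.9% (43.2 to 50.7) and 48.0% (45.0 to 50.9). The annotation holds this extended donor only in a transcript whose start is incomplete, so full-length forms that use it are not annotated. The 36 bases, in capitals below, add 12 codons to the coding sequence, and GT follows the exon at either donor.
Cdkn1c exon 2, donors (mm10, chr7:143459750-143459812, minus strand): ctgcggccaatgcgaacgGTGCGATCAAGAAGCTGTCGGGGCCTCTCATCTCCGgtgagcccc
The extended donor took 39.1% (27.6 to 51.6), 46.9% (42.2 to 51.7) and 49.7% (42.4 to 57.1) of reads from the outer, inner and unannotated acceptor in replicate 2, and 48.6% (39.0 to 58.3), 48.5% (44.8 to 52.3) and 46.3% (40.5 to 52.2) in replicate 1. These intervals overlap, and the differences were not tested.

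**Figure D4:**
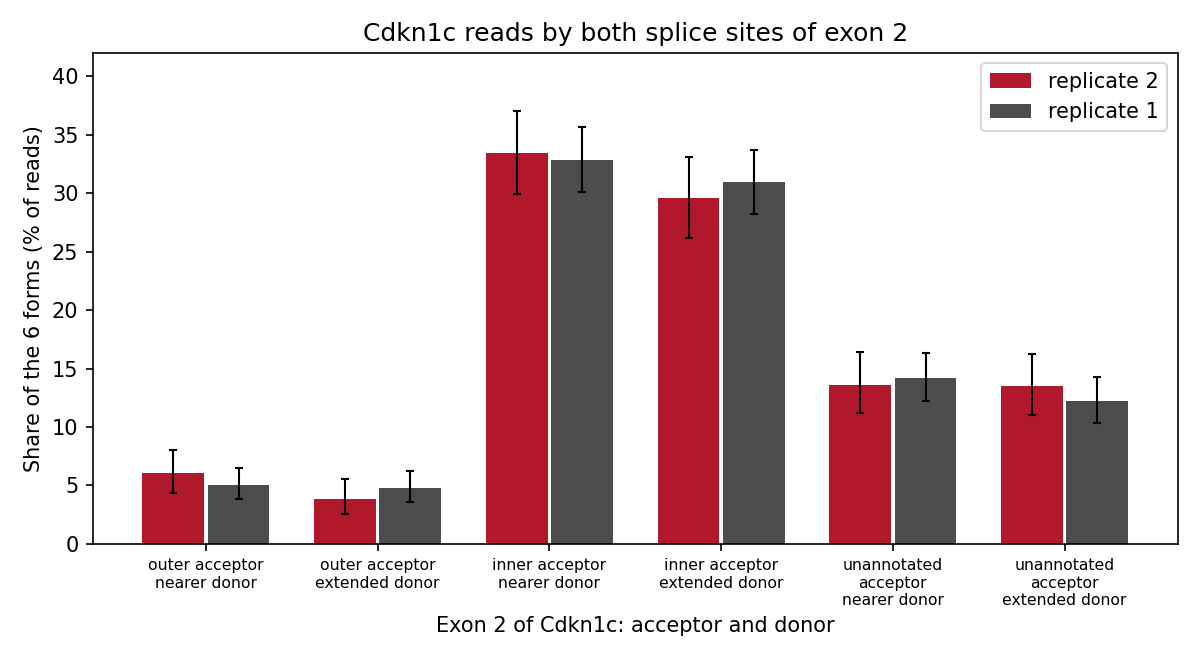
Share (%) of each of the 6 forms of Cdkn1c exon 2 among 697 reads in replicate 2 (red, left) and 1128 reads in replicate 1 (grey, right), with exact 95% counting intervals. The extended donor is the one that adds 36 bases. The inner acceptor with either donor leads, at 33.4% and 29.6% in replicate 2 and 32.8% and 30.9% in replicate 1.

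As whole chains of introns, the leading form was the annotated one with the inner acceptor and the nearer donor, with 214 of 742 multi-exon reads in replicate 2 (28.8%, 25.6 to 32.2) and 332 of 1183 in replicate 1 (28.1%, 25.5 to 30.7). A NIC chain with the inner acceptor and the extended donor followed with 180 and 329 reads. The unannotated acceptor came with the nearer donor in 84 and 139 reads and with the extended donor in 85 and 130. The annotated form with the outer acceptor and the nearer donor had 36 and 53 reads, and the outer acceptor with the extended donor had 23 and 50. The authors' class labels were uneven for these chains, since the same chain of 84 and 139 reads was NNC in replicate 2 and NIC in replicate 1, and the chain of 85 and 130 reads was NIC in replicate 2 and NNC in replicate 1. For this reason the classes are also given as a sum. The annotated form with the incomplete start had 20 and 14 reads. A chain without the first intron, classed ISM, had 12 reads in replicate 2 and 31 in replicate 1.

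Reads of Cdkn1c also held gaps inside exon 2, in a stretch of repeated codons. A gap of 84 nt (143460027 to 143460110) was seen in 30 reads in replicate 2 and 50 in replicate 1, and a gap of 59 nt (143460015 to 143460073) in 18 and 17 reads. As placed in the models, both begin with GT and end with AG. The bases at the ends of the 84-nt and 59-nt gaps repeat over 4 and 2 nt. The same read sequence therefore allows other positions of each gap. The 84-nt gap removes the length of 28 whole codons, while the length of the other is not a multiple of a codon. An annotated form has a gap of 72 nt with the same 3′ end (143460027), seen in 0 reads in replicate 2 and 1 in replicate 1. Some gap was present in 48 of 697 reads of the 6 forms in replicate 2 (6.89%, 5.12 to 9.03) and 66 of 1128 in replicate 1 (5.85%, 4.55 to 7.38). The sequence around the longer gap shows the repeats, with the absent bases in capitals. The 84-nt and 59-nt gaps overlap and differ at both ends. A reference sequence of the CAST parent was not used here. Whether these gaps come from splicing, a difference between the parental genomes or another source was not tested.
Cdkn1c exon 2, 84-nt gap (mm10, chr7:143460009-143460128, minus strand): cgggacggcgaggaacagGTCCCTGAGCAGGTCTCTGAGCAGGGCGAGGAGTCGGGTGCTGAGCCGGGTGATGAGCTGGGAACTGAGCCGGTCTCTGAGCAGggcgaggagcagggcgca

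A further close pair of acceptors lay at exon 4 of Cdkn1c, in the untranslated 3′ part. The unannotated acceptor 5 bases further in (143459016 in place of 143459021) was used in 28 of 741 reads in replicate 2 (3.78%, 2.53 to 5.42) and 36 of 1182 in replicate 1 (3.05%, 2.14 to 4.19). Its 5 bases, in capitals, again end in AG.
Cdkn1c exon 4 (mm10, chr7:143458992-143459021, minus strand): TTTAGaggctaacggccagagagaacttgc
The annotated antisense gene Gm44732 overlaps Cdkn1c and had 0 reads in both libraries. Unspliced Genomic reads of Cdkn1c numbered 4 in replicate 2 and 20 in replicate 1.

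Cell cycle relatives of Cdkn1c were called lower in part, under scaling by gene reads. Of 13 listed CDK inhibitors, cyclins and kinases 9 reached 20 summed reads, of which 0 were higher, 3 lower and 6 did not pass. Over all genes tested 8.58% were higher and 17.9% lower. The median log2 ratio of the list was -0.56, beside -0.28 over all genes. Ccnd3, a D-type cyclin, was at 212 CPM in replicate 2 and 365 CPM in replicate 1 (log2 ratio -0.78, SE 0.125). Cdk4, its kinase partner, had 156 and 234 reads (-0.41, SE 0.149), and the kinase inhibitor Cdkn2d had 23 and 51 (-0.96, SE 0.359). Cdkn2c, another inhibitor, had 66 and 100 reads and did not pass, nor did Ccnd2 with 33 and 55. None of the 3 lower calls was made under spike-in scaling, where Cdk4 was at 0.17, or with an assumed coefficient of variation of 0.4.

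Kcnq1ot1, the antisense RNA of the domain (143203458 to 143296549, minus strand), had 0 reads in replicate 2 and 3 in replicate 1, all on its single-exon model of 93092 nt. Gm27389, a short annotated RNA on the other strand inside it, had 3 reads in each library. Phlda2, a small pleckstrin homology protein that restrains placental growth (143501545 to 143503150, minus strand), had 0 reads and 1 read. Neither gene exceeds the 3 reads that a count of 0 allows, so no fold is given and a difference was not detectable at this depth.

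Slc22a18, a membrane protein of the organic cation transporter family (143473736 to 143499334, plus strand), had 29 reads in replicate 2 and 1 in replicate 1, or 30.6 and 0.938 CPM. The ratio was 32.6 with an exact counting interval of 5.41 to 1333 (adjusted p = 7.41e-08, exact conditional binomial test). Of the 29 reads in replicate 2, 17 were on Known models, 10 on ISM models, 1 on a NIC and 1 on an NNC model. Its annotated first exons were both in use in replicate 2. By annotated introns, the upstream one was in 11 of 18 reads that joined either to exon 2 (61.1%, 35.7 to 82.7) and the downstream one in 7 (38.9%, 17.3 to 64.3). Left out of these is 1 read on an unannotated intron (143473842 to 143476069) with the same acceptor. The annotated forms from the 2 first exons had 10 and 7 full chains, and the coding sequence of both begins in exon 2, at 143476198. The hepatocyte and skeletal muscle markers moved with this gene as with H19, and their part in the result was not tested.

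Nap1l4, a nucleosome assembly protein that carries histones (143513579 to 143549106, minus strand), did not pass the test between the libraries. It had 86 reads in replicate 2 and 102 in replicate 1, or 90.9 and 95.7 CPM (93.3 ± 3.44 CPM, SD, n = 2). The log2 ratio of -0.074 (SE 0.211, ratio interval 0.704 to 1.28) did not pass (adjusted p = 0.889, exact conditional binomial test), and it was at 0.21 under TMM and 0.51 under spike-in scaling. Its leading chain was annotated, with 40 of 78 multi-exon reads in replicate 2 (51.3%, 39.7 to 62.8) and 60 of 96 in replicate 1 (62.5%, 52.0 to 72.2). The 2 main forms differ by a cassette exon of 36 nt (143518850 to 143518885), which was joined in 19 of 76 reads in replicate 2 (25.0%, 15.8 to 36.3) and 17 of 94 in replicate 1 (18.1%, 10.9 to 27.4). The annotated coding sequence of the form with this exon stops in it, at 143518883, while that of the leading form runs on to 143514602, so the annotated proteins differ at their ends.

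Cd81, a tetraspanin of the cell surface (143052739 to 143067934, plus strand), had the most reads of the 8 genes in both libraries. It had 1311 reads in replicate 2 and 1871 in replicate 1, or 1385 and 1756 CPM (1570 ± 262 CPM, SD, n = 2). The log2 ratio was -0.34 (SE 0.052, adjusted p = 6.52e-10, exact conditional binomial test), close to the -0.28 of the median gene. The call was lost under TMM (-0.058) and under DESeq2 scaling (-0.048), and the log2 ratio was 0.25 and past the test in the other direction under spike-in scaling. Almost all reads followed 1 form, with 1 annotated chain in 1256 of 1291 multi-exon reads in replicate 2 (97.3%, 96.2 to 98.1) and 1779 of 1836 in replicate 1 (96.9%, 96.0 to 97.6).

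The few unannotated reads of Cd81 were mostly shifts of 4 bases at a splice site, in both libraries. At the start of exon 7 an acceptor at 143067151 in place of 143067147 was used in 15 of 1290 reads in replicate 2 (1.16%, 0.652 to 1.91) and 28 of 1835 in replicate 1 (1.53%, 1.02 to 2.20). At the end of exon 2 a donor at 143062603 in place of 143062607 was used in 5 of 1287 reads (0.389%, 0.126 to 0.904) and 11 of 1832 (0.600%, 0.300 to 1.07). The bases that each shift leaves out are in capitals. Those of the acceptor end in AG and those of the donor begin with GT, and a shift of 4 bases in a coding exon changes the reading frame.
Cd81 exon 7, acceptor (mm10, chr7:143067147-143067176, plus strand): CAAGattgtcatcagaaaatcgatgagctc
Cd81 exon 2, donor (mm10, chr7:143062580-143062607, plus strand): aaaccggcacccaacaccttctacGTGG

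No member that could be tested passed a test of isoform use between the libraries. The leading chain was compared with all other multi-exon reads by Fisher's exact test, two-sided, in 5374 genes with at least 20 multi-exon reads in each library, of which 30 (0.558%) passed after Benjamini-Hochberg adjustment. Cdkn1c (28.8% in replicate 2 and 28.1% in replicate 1, adjusted p = 1.00), Cd81 (adjusted p = 1.00) and Nap1l4 (51.3% and 62.5%, adjusted p = 0.895) did not pass Fisher's exact test. H19 had 19 multi-exon reads in replicate 1 and fell under the minimum. A p that misses the threshold does not show that the shares were equal, and the intervals above give the range the reads allow. Of 14 unannotated introns of the members whose end letters could be read from annotated transcripts, 12 began with GT and ended with AG and 2 began with GC and ended with AG. Most of them rest on 1 read, including the 5 of H19 and the 1 of Igf2. Their end bases repeat over up to 5 nt, so the same read sequence allows other positions of the junction. Whether these introns come from splicing was not tested.

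Neighbours on distal chromosome 7 were mixed. Of 22 listed neighbours 10 reached 20 summed reads, of which 1 was higher, 4 lower and 5 did not pass. Over all genes tested 8.58% were higher and 17.9% lower. The median log2 ratio of the neighbours was -0.20, beside -0.28 over all genes. Tnni2, a fast skeletal muscle troponin on the H19 side of the region, had 40 reads in replicate 2, against 1 in replicate 1 (ratio 45.0, exact counting interval 7.63 to 1823). Tnnt3, a muscle troponin T in the same list of neighbours, had 19 and 0 reads and stayed under the minimum. Both are also in the skeletal muscle list. Mrpl23, a mitochondrial ribosomal protein gene between H19 and the troponins, had 69 and 74 reads and did not pass (log2 ratio 0.071, SE 0.241). Th, the tyrosine hydroxylase of chromaffin cells, lies between Igf2 and Cd81 and was lower, with 661 and 2168 reads (log2 ratio -1.54, SE 0.064). Dhcr7, the last enzyme of cholesterol synthesis, had 200 and 852 reads (-1.92, SE 0.113) and Ctsd, a lysosomal protease, 1125 and 1819 (-0.52, SE 0.055). Tssc4, next to Cd81, had 42 and 79 reads (-0.73, SE 0.274, adjusted p = 0.0333 in the exact conditional binomial test). Under spike-in scaling Th and Dhcr7 were lower too, Ctsd was at 0.065, Tssc4 did not pass, and Mrpl23, Cars and Nadsyn1 were called higher. That scaling called 2071 of all 9211 genes higher and 170 lower. Cars had 52 reads in each library, Nadsyn1 27 and 19, Lsp1 14 and 22, and Osbpl5 17 and 18, and none of these passed under scaling by gene reads.

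**Figure D5:**
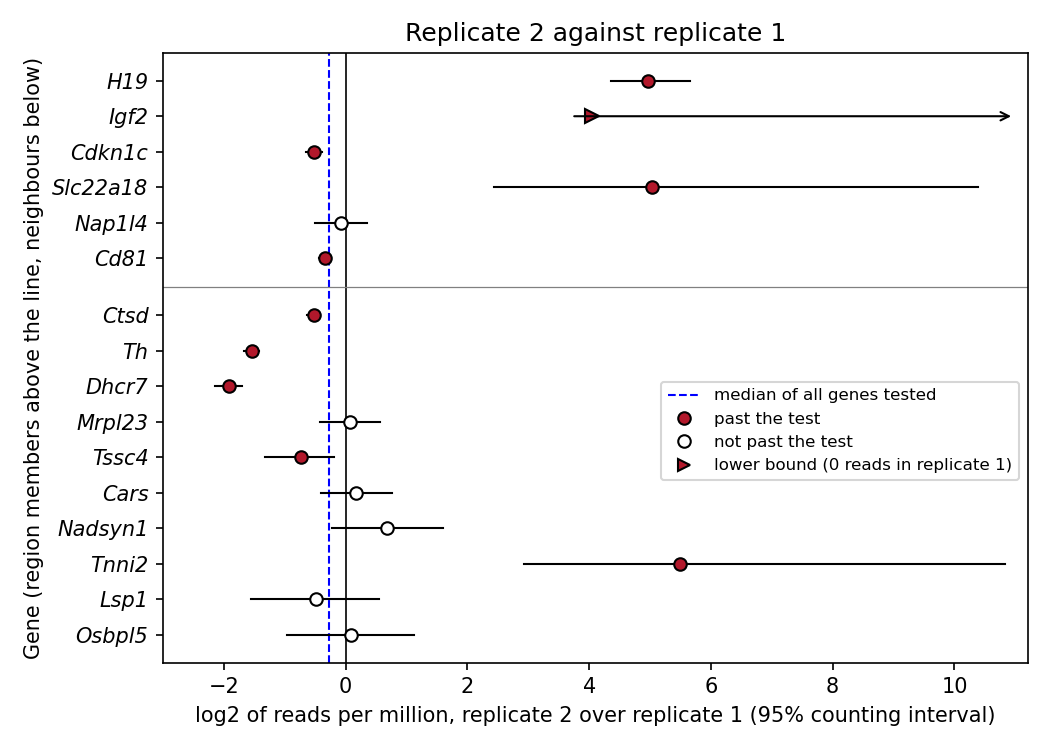
Log2 of CPM in replicate 2 over replicate 1 for the 6 members (above the line) and 10 neighbours (below) with at least 20 summed reads, with exact 95% counting intervals. Filled points passed the exact test, and the dashed line is the median of all genes tested (-0.28). The triangle, named a lower bound in the legend, is Igf2 against the limit of 3 reads in replicate 1 (16.5-fold). Its counting interval starts lower, at 12.9-fold. H19, Igf2, Slc22a18 and Tnni2 stand to the right, and the lower calls except Th, Dhcr7 and Tssc4 turn positive under spike-in scaling.

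Imprinted genes of a list outside the region were called lower in part, under scaling by gene reads. Of 30 listed imprinted genes outside the region 18 reached 20 summed reads, of which 0 were higher, 8 lower and 10 did not pass. Over all genes tested 8.58% were higher and 17.9% lower. The median log2 ratio of the list was -0.51, beside -0.28 over all genes. Dlk1, a paternally expressed membrane protein, had 189 reads in replicate 2, against 546 in replicate 1 (log2 ratio -1.36, SE 0.122), and Meg3, its maternally expressed noncoding neighbour, 28 and 82 (-1.36, SE 0.313). Gnas, which encodes a G protein subunit, had 2192 and 2745 reads (-0.15, SE 0.041) but was higher under TMM (0.13) and spike-in scaling (0.43). H13 had 238 and 398 reads (-0.57) and Ndn 216 and 332 (-0.45), and both calls were lost under TMM, with positive values of 0.017 and 0.14 under spike-in scaling. Nnat had 50 and 147 reads (-1.38, SE 0.235) and Sgce 48 and 89 (-0.71, SE 0.257), a call lost under TMM. Nap1l5, an imprinted relative of Nap1l4, had 18 and 68 reads (-1.72, SE 0.378). Under TMM 1 gene of the list, Gnas, was higher, and under spike-in scaling Gnas and Mest were. Under both, 4 genes were lower, namely Dlk1, Meg3, Nnat and Nap1l5. Of all 9211 genes TMM called 1151 higher and 552 lower, and spike-in scaling 2071 and 170.

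Factors known to act on imprinting marks showed no call in the exact conditional binomial test, with 0 of 15 genes past it in either direction. Over all genes tested 26.4% passed. Many of the 15 had few reads, so a modest difference was not detectable. Eed, for example, did not pass at a log2 ratio of -0.82 (SE 0.337). The median log2 ratio of the list was -0.12, beside -0.28 over all genes. Trim28, the co-repressor that guards imprints, had 182 reads in replicate 2, against 258 in replicate 1 (log2 ratio -0.33, SE 0.139, adjusted p = 0.0606 in the exact test), and Ctcf, which binds the H19 control element, had 17 and 25. Ehmt2 had 48 and 66 reads, Smc1a 51 and 42 and Eed, a polycomb subunit, 27 and 54. At an unadjusted p under 0.05 there were 2, Trim28 and Eed, and edgeR's exact test called 0 at an assumed variation of 0.2 or 0.4. Under spike-in scaling 1 of the 15, Smc1a, was higher, against 2071 of all 9211 genes tested. Relatives of Nap1l4, Phlda2, Cd81 and Slc22a18 were called lower in 5 of 10 tested genes and higher in 0, against 17.9% and 8.58% of all genes tested. Their median log2 ratio was -0.37, beside -0.28 over all genes. The 5 lower genes were the tetraspanins Tspan3 (236 reads in replicate 2 and 348 in replicate 1), Cd63 (189 and 273), Cd151 (151 and 272) and Cd9 (102 and 223) and the histone chaperone Nap1l1 (86 and 137). Phlda1, a relative of Phlda2, had 114 and 161 reads and did not pass. Under TMM 2 of these 5 calls were made, Cd151 and Cd9, and under spike-in scaling 0 were lower and 1 gene, Phlda3, was higher. Of all 9211 genes TMM called 1151 higher and 552 lower, and spike-in scaling 2071 and 170.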

How the data were processed

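Long-read RNA libraries of adrenal gland were measured in 2 biological replicates of 1 group. The deposited counts are whole reads per transcript model on mm10 with GENCODE M21, per the file headers, with TALON gene and model identifiers and classes. For the aligner, the TALON version and the read filters, nothing is stated in the sources used here. Model coordinates, lengths and exon numbers were taken as the authors deposited them. Reads were summed per annotated gene over all classes, without spike-ins, and divided by the gene reads of the library (946553 in replicate 2 and 1065570 in replicate 1). Models were joined across the libraries by strand and chain of introns, with ends ignored.

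With 2 libraries in a single group, a quasi-likelihood fit across replicates could not be made. A two-sided exact conditional binomial test on the library totals compared each gene of at least 20 summed reads, and Fisher's exact test compared leading chains with at least 20 multi-exon reads in each library. All p-values were adjusted by Benjamini-Hochberg, with a threshold of 0.05. Replicate 2 is on top in every log2 ratio, which has 0.5 reads added to each count. Shares have Clopper-Pearson 95% intervals. Reads are not independent molecules, so intervals, limits of 3 counts and tests cover counting error only. Alternatives used TMM from edgeR 4.0.16, DESeq2 1.42.0 size factors, spike-in totals, other classes, minimums of 1 and 50 reads, 1 read added, and edgeR's exact test with an assumed coefficient of variation of 0.2 or 0.4. Tests were checked on simulated counts that held counting error only. These counts had no added variation between libraries and no shift in composition, so the check does not cover either. Python 3.11.15, SciPy 1.17.1 and R 4.3.3 were used.

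Bases were read from GENCODE M21 transcripts of the same build and microRNAs from RefSeq. The members, lists and rules were chosen with earlier results of these data known. Named genes are the members, the 4 measured genes of highest mean CPM in each list, list genes past the test by over 4-fold, every measured neighbour, the 5 nearest to H19 and to Cdkn1c, and chains with at least 10% of a member's multi-exon reads or unannotated chains with at least 3. For the marker lists, counts and sums are given, and the names only of the hepatocyte and skeletal muscle markers with 0 reads in a library, chosen after their values were seen. Igf1r, Igf2r, Meg3, Nap1l5, Nnat, Sgce, Mest, Phlda1, Phlda3, Gm27389, Gm44732, Gm49394, Ctcf, Tnnt3, Nap1l1 and Cdkn2d were named after their values were seen. Minor unannotated chains are given by their splice sites.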

Additional observations from a re-analysis of the deposited data

Results flagged for a closer look

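Reads outside the annotated genes were looked for along the 974 kb from H19 to Nap1l4, and 3 unannotated loci had more than the 3 reads that a count of 0 allows. On the plus strand inside Nap1l4, antisense to it, an unspliced locus (143524660 to 143527166) carried 7 reads in replicate 2, against 18 in replicate 1. Another, over the start of Nap1l4 on the plus strand (143548737 to 143549887), carried 4 reads in replicate 2, against 2 in replicate 1. Beyond the annotated 3′ end of Th on the minus strand, an intergenic locus that starts at 142889728 had 2 reads in replicate 2, and one that starts at 142889723 had 5 in replicate 1. The span of the models assigned to Th covers this stretch on the same strand in both libraries (142889728 to 142904496 in replicate 2 and 142870696 to 142905057 in replicate 1), so these reads cannot be told apart from Th by position. The unannotated loci named are single-exon, so no splice site fixes their strand, and no control samples exist to set a background. In all, antisense loci of the region held 16 reads in replicate 2 and 28 in replicate 1, and intergenic loci 3 and 7.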

How the results depend on the processing

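No paired analysis was possible because the design has a single group. H19 kept its direction and call under all 12 alternatives, Igf2 under 9 and Slc22a18 under 10 (log2 ratio 4.08 to 5.06), where a value could be had. For Igf2 against the limit of 3 reads the log2 value was 4.05 to 4.63. Counted with Gm49394, the alternative chosen after the data were seen, its log2 ratio was 3.84. The members called higher were 1 with Known models only and 1 with a minimum of 50 reads, since Igf2 and Slc22a18 then had too few reads. The members called lower numbered 1 with TMM, 1 with DESeq2 size factors, 0 with spike-in totals, and 0 in edgeR's exact test with either assumed variation. That test called 513 genes at 0.2 and 336 at 0.4. Cdkn1c was at 0.069 under spike-in scaling, and at -0.52 its exact call was lost with either assumed variation. Cd81 was at 0.25 under spike-in scaling, and its call was lost at -0.058 under TMM, at -0.048 under DESeq2 and at -0.34 with either assumed variation. Nap1l4 turned to 0.21 under TMM, 0.22 under DESeq2, 0.51 under spike-in scaling and 0.084 without the hepatocyte and muscle markers in the totals. With Known models only, mean CPM was 438 for Cdkn1c, 85.6 for Nap1l4 and 1950 for Cd81. Leaving out a library gave mean CPM of 20.6 to 648 for H19, 0 to 46.5 for Igf2, 788 to 1129 for Cdkn1c, 0 to 0.938 for Phlda2, 0 to 2.82 for Kcnq1ot1, 0.938 to 30.6 for Slc22a18, 90.9 to 95.7 for Nap1l4 and 1385 to 1756 for Cd81. With Known models only, the mean leading share was 98.5% for H19, 79.3% for Cdkn1c, 74.5% for Nap1l4 and 99.8% for Cd81, and with Known, NIC and NNC models only, which leaves out ISM and Genomic models, 98.2% for H19 and 29.2% for Cdkn1c. The genes whose leading share differed kept their count within 1.5 times under both alternatives. The cause of these shifts was not tested. Depth limits Phlda2, Kcnq1ot1 and the Slc22a18 and H19 isoforms in replicate 1.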
